A study of Homo sapiens with 8 samples.

Results

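CXCL10, CXCL11 and ART3 are neighbouring genes on human chromosome 4, and these 3 of the 16525 genes in the deposited table are described here. They were selected on measured values, because their transcripts were higher in cytokine-treated than in untreated cells, so their change with cytokines is given as a description with no test. The cells are EndoC-βH5, an established human beta-cell line. A group of 4 libraries came from untreated control cells, and another 4 came from cells exposed for 48 h to IL-1β at 50 U/mL, IFNγ at 1000 U/mL and TNFα at 1000 U/mL. All libraries come from the same line, so they are not donors, and the labels do not say whether they came from separate cultures. P-values then measure only the spread between these samples, which may be technical.

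CXCL9, CXCL10 and CXCL11 encode small secreted chemokines that bind the receptor CXCR3 on activated T cells and natural killer cells. They are classic products of interferon gamma signalling, in which receptor-bound JAK kinases start the signal and the transcription factor IRF1 is raised, and NF-kB adds to the transcription of CXCL10. In islets under immune attack, beta cells are a known source of CXCL10. ART3 belongs by sequence to the ADP-ribosyltransferase family of cell-surface proteins, and its gene shares the chromosomal interval with the chemokine genes.

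In GENCODE 29 on GRCh38, CXCL9 lies at chr4:76001275-76007488, CXCL10 (ENSG00000169245) at chr4:76021117-76023497 and CXCL11 (ENSG00000169248) at chr4:76033682-76041415, all on the minus strand. ART3 (ENSG00000156219) runs in the opposite direction from chr4:76011184-76112802. The whole span of CXCL10 (2381 bases) and of CXCL11 (7734 bases) falls inside ART3, in its introns. In GENCODE 29 the exons of ART3 share 0 bases with the exons of either chemokine gene. The study counted reads on a different annotation, from Ensembl, whose ART3 exons were not examined. Whether any read within an exon of CXCL10 or CXCL11 was counted for ART3 was thus not tested. The libraries were made with a strand-specific kit.

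The sequences just upstream of the starts are shown because interferon and NF-kB act on the chemokine genes through short elements there. They are the RefSeq windows of 250 bases before each start (build GRCh38.p14), printed 5′ to 3′ on the strand of the gene, without bases that GENCODE 29 places in an exon of the gene. The printed stretches are chr4:76007510-76007759 for CXCL9, chr4:76023498-76023747 for CXCL10 and chr4:76036198-76036320 for CXCL11, all on the minus strand, and chr4:76010940-76011183 on the plus strand for the first of the 2 ART3 starts in RefSeq. The CXCL11 stretch precedes its RefSeq start at chr4:76036070, which lies inside the GENCODE span of CXCL11. Bases before the GENCODE start of CXCL11, at chr4:76041415, were not searched. Capitals mark matches on either strand to an interferon-stimulated response element (ISRE, GAAANNGAAA), a gamma-activated site (GAS, TTCNNNGAA) or a kappaB element (GGGNNNNNCC).
CXCL9: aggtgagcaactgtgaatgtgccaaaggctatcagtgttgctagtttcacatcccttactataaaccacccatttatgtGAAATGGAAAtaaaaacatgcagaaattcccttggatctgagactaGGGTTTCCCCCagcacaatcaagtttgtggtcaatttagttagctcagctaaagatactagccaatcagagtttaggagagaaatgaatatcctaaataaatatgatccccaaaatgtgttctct
CXCL10: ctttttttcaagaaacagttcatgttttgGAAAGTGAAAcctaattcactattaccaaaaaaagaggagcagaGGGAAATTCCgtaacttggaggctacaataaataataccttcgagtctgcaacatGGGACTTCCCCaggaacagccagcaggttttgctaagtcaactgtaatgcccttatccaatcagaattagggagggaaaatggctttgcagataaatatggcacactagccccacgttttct
CXCL11: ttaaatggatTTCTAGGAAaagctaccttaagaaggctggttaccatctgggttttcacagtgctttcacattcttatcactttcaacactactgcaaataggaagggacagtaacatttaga
ART3: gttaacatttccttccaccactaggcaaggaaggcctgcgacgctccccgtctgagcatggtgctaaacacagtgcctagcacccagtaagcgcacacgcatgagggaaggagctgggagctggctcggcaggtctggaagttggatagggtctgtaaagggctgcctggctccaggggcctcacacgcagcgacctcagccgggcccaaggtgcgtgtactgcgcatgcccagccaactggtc

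The CXCL10 window held an ISRE match 221 to 212 bases before the start and kappaB matches at 177 to 168 and at 122 to 112 bases, the latter a run of overlapping matches on both strands. The CXCL9 window held an ISRE match at 171 to 162 bases and overlapping kappaB matches at 125 to 115 bases. The CXCL11 window, counted from its RefSeq start at chr4:76036070, held no ISRE match. It held a GAS match 240 to 232 bases before the start and a kappaB match at 76 to 67 bases. That kappaB match, GGGAAATTCC, has the same letters as the distal one of CXCL10 and lies in the part that GENCODE counts as exon. Neither ART3 window held any of the 3 motifs. Of all 35116 RefSeq windows of the same length, 3.02% held the ISRE letters, 6.57% the GAS letters and 54.4% the kappaB letters, so a kappaB match sets a window little apart. G and C made up 40.8% of the CXCL10 window, 37.2% of the CXCL11 window and 61.2% of the first ART3 window, against a median of 58.0%. These matches describe letters and are not shown to be bound.

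Values are CPM, the reads of a gene scaled to the library total. In each of the 8 libraries 100% of the values were whole multiples of 1 read, which was worth 0.0196 to 0.0214 CPM, and between 36577438 and 40117636 reads fell on the listed genes. A count of 0 allows up to 3 reads (0.0587 to 0.0641 CPM), and read-based limits cover counting error only. Column names tie every control library to a cytokine library through a common prefix, and these pairs are called A to D. The names of A and B carry the number 21 and those of C and D the number 22, called series 21 and series 22 below, with 2 libraries per condition in each. All 10 beta-cell markers were measured, and they summed to 24063 to 36485 CPM in control and 29104 to 52795 CPM in cytokine libraries. Most of this sum was CHGA, at 16689 to 24930 CPM in control and 20160 to 36198 CPM in cytokine libraries. INS held 1158 to 2905 CPM in control and 1445 to 2172 CPM in cytokine libraries. Of the 10, 5 were called lower with cytokines, G6PC2 (-2.60), MAFA (-2.27), SLC30A8 (-1.20), ABCC8 (-0.84) and PDX1 (-0.78), and none higher, while IAPP (0.93) was called higher with the pair as a block (adjusted p = 3.52e-09, limma) and NKX6-1 (0.54) with TMM scaling. Of 9 leukocyte markers only CD14 was measured, at 1.07 to 3.26 CPM in control and 1.23 to 1.95 CPM in cytokine libraries, and none of 3 endothelial markers was. Of 4 exocrine markers 2 were measured, KRT19 and CPA1, which together held 88.2 to 167 CPM in control and 84.6 to 166 CPM in cytokine libraries, and CPA1 was called lower (-1.06, adjusted p = 0.00201, limma). Of 4 fibroblast markers 2 were measured, at 3.56 to 5.30 CPM in control and 4.29 to 6.41 CPM in cytokine libraries together. The part of these markers in the results was not tested. Fewer cells and less RNA per cell cannot be told apart in these bulk samples.

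CXCL10, the ligand best known from inflamed islets, was close to silent in untreated cells. Control libraries A to D held 1.005, 1.55, 0.0398 and 0 CPM, which are 47, 73, 2 and 0 reads. Cytokine libraries A to D held 344, 346, 459 and 759.7 CPM. The groups were far apart, and the 2 control libraries of series 21 stood above those of series 22. The means were 0.647 ± 0.758 CPM (SD, n = 4) in control and 477 ± 196 CPM (SD, n = 4) in cytokine libraries, a ratio of 737. On the log2(CPM + 0.1) scale the difference was 10.14 (SE 0.80) over all libraries and ran from 7.72 to 12.89 across pairs. In reads, pair A rose 342-fold (95% counting interval 257 to 466) and pair B 224-fold (178 to 286). Pair C rested on 2 control reads and gave a ratio of 11519 (3188 to 95123), and pair D, with no control read, was at least 12951-fold higher.

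CXCL11, which binds CXCR3 and also the scavenging receptor ACKR3, was at the limit of detection without cytokines. Control libraries A to D held 0.0428, 0.148, 0.0398 and 0.196 CPM, which are 2, 7, 2 and 10 reads. Cytokine libraries A to D held 49.5, 52.3, 82.8 and 97.2 CPM. As for CXCL10, the cytokine libraries of series 22 were higher than those of series 21, while the control libraries showed no such order. The means were 0.107 ± 0.0778 CPM (SD, n = 4) and 70.5 ± 23.4 CPM (SD, n = 4), a ratio of 661. The log2 difference was 8.43 (SE 0.31) and ran from 7.72 to 9.21 across pairs.

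ART3 was listed at 0 reads in each of the 4 control libraries. Cytokine libraries A to D held 64, 105, 93 and 77 reads, or 1.36, 2.24, 1.87 and 1.55 CPM. The 95% counting intervals were 49.3 to 81.7 reads in library A and 85.9 to 127 reads in library B, so these libraries of the same series differed by more than counting error. The cytokine mean of 1.76 ± 0.387 CPM (SD, n = 4) was at least 27.4-fold higher than the highest 3-read limit among the control libraries. The lower bounds within pairs ran from 21.2-fold in pair A to 35.3-fold in pair B. The fitted log2 difference of 4.19 is set by the pseudocount and is no estimate of the fold.

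**Figure D1:**
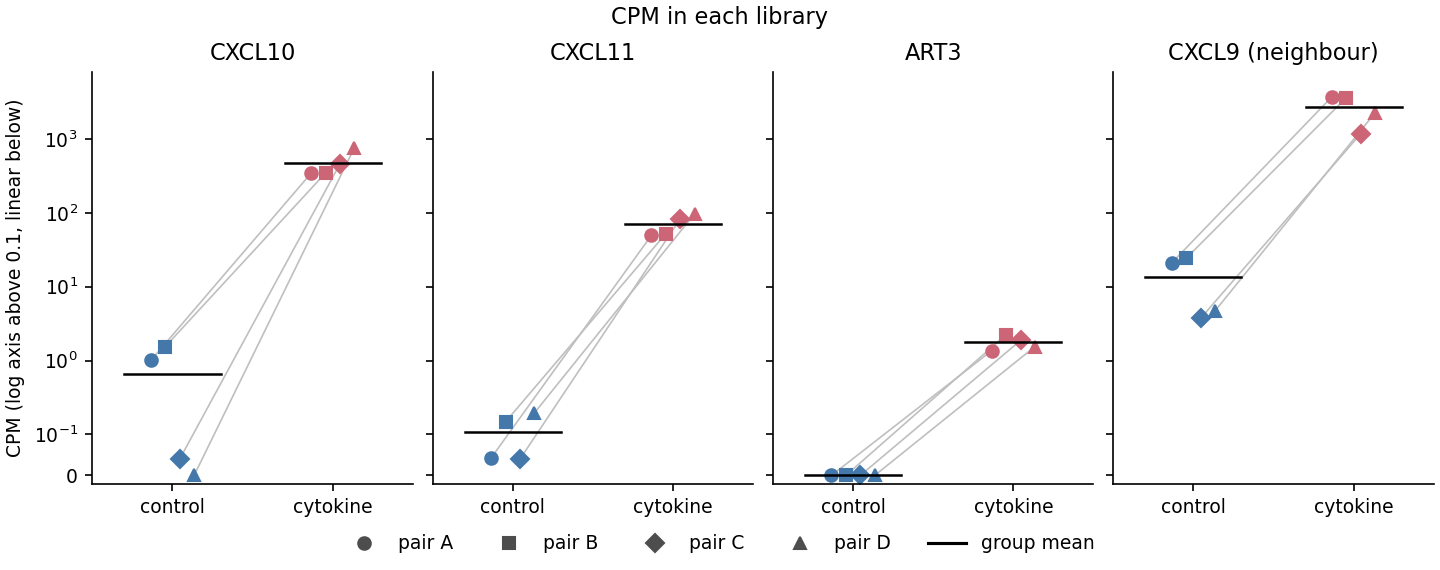
CPM of CXCL10, CXCL11, ART3 and the neighbour CXCL9 in each of the 8 libraries (vertical axis logarithmic above 0.1 CPM and linear below), with symbols for pairs A to D, grey lines joining the libraries of a pair and black bars for group means. For each gene the 4 cytokine libraries sit above the 4 control libraries, and the control libraries of CXCL10 and CXCL9 split into A and B above C and D.

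For each of the 3 genes, the 4 cytokine libraries lay above the 4 control libraries. Of all genes, 10.8% did so, and 27.0% were called, meaning that the log2 fold change passed 0.5 in either direction with an adjusted p below 0.05 (limma). Called as higher were 9.52% of all genes. Nothing is read from the members against these shares, since the same contrast chose them. Among all genes ordered by the log2 fold change on the log2(CPM + 0.1) scale, CXCL10 stood at place 1, CXCL11 at place 9, CXCL9 at place 13 and ART3 at place 115. By the fold change of edgeR on reads they stood at places 4, 8, 37 and 6, so the order among genes with few or no control reads depends on the method. Over the whole table the median was -0.17, and -0.02 after TMM scaling.

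Levels between genes were compared per exon length, in TPM, which divides the reads of each gene by its exon bases and scales every library to the same sum. In cytokine libraries CXCL10 reached 1089, 1102, 1742 and 3022 TPM in A to D, places 55, 55, 50 and 29 of 16167 genes. CXCL11 reached 96.6, 103, 194 and 238 TPM, between places 1055 and 388. ART3 reached 1.55, 2.56, 2.55 and 2.21 TPM, between places 13861 and 12637. The ranges of the 3 genes did not overlap, in the order CXCL10, CXCL11, ART3. Without cytokines CXCL10 was at 0 to 4.42 TPM, CXCL11 at 0.0757 to 0.447 TPM and ART3 at 0. The ranges of CXCL10 and CXCL11 overlapped there, and their order differed between libraries. CXCL10 was the higher in control libraries A and B (2.88 and 4.42 TPM, beside 0.0757 and 0.261 TPM for CXCL11). In C each had 2 reads, and in D CXCL10 had 0 reads and CXCL11 had 10.

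CXCL9, the third CXCR3 ligand, was the most abundant of them in each cytokine library. It stood at 5066, 4970.5, 1929 and 3885 TPM in cytokine libraries A to D. Its range overlapped that of CXCL10, although CXCL9 was the higher within each library. The TPM ratio of CXCL9 to CXCL10 was 4.65 and 4.51 in series 21 but 1.11 and 1.29 in series 22. The ratio of CXCL10 to CXCL11 varied less, at 11.3, 10.7, 8.98 and 12.7. CXCL10 accordingly made up 17.4% and 17.8% of the summed ligand TPM in series 21, and 45.1% and 42.3% in series 22.

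**Figure D2:**
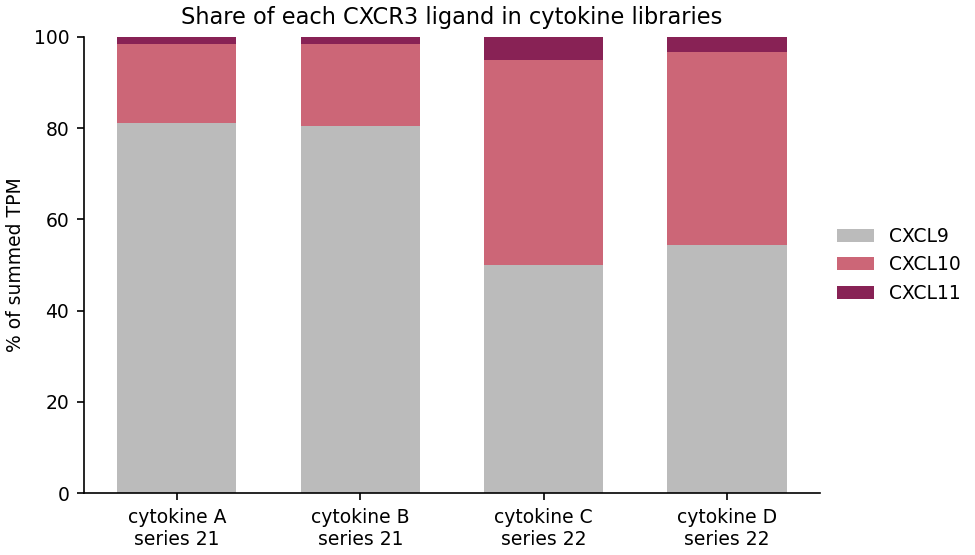
Share of CXCL9, CXCL10 and CXCL11 in their summed TPM (vertical axis, %) in each cytokine library. CXCL9 holds 81.0% and 80.5% in the libraries of series 21 and 49.9% and 54.4% in those of series 22, and CXCL11 between 1.55% and 5.02%.

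The difference between the 2 series was tested in each condition and for the cytokine change itself, with limma over all genes and 2 libraries in each cell. In control libraries CXCL10 was lower in series 22 by a log2 difference of -3.51 (SE 0.26, adjusted p = 0.000102, limma). Since it rests on 0 to 2 reads in series 22, its value was -1.76 and -1.15 at pseudocounts of 0.5 and 1 and -6.00 with edgeR, each called. In cytokine libraries it was not called different (0.77, SE 0.26, adjusted p = 0.0801, limma), but it was called at pseudocounts of 0.5 and 1 (adjusted p = 0.0448 and 0.0364, limma) and without control library D or cytokine library C (adjusted p = 0.0477 and 0.0366, limma). Its change with cytokines was larger in series 22, with a log2 difference of 4.29 (SE 0.37, adjusted p = 0.000745, limma). CXCL11 was called in none of the 3 comparisons, with log2 differences of 0.11 in control, 0.82 in cytokine libraries and 0.71 for the change (SE 0.51, adjusted p = 0.999 for the change, limma). Its cytokine-library difference, with an adjusted p of 0.160, was called at pseudocounts of 0.5 and 1 (adjusted p = 0.0296 and 0.0155, limma) and with edgeR (0.74, adjusted p = 0.0360). ART3 differed by -0.04 in cytokine libraries and for the change (SE 0.63 for the change), and its control libraries, all at 0, give no comparison.

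Calls between series were common in control libraries, where 18.4% of all genes passed, and 9.04% passed in cytokine libraries. The median of all genes was 0.18 for the control comparison and 0.0074 after TMM scaling, where CXCL10 stood at -3.55. For the change, 5 genes or 0.0303% passed. An unadjusted p below 0.05 was found for 488 genes (limma), fewer than arise by chance at 0.05 with no difference in any gene. The 5 were CXCL10, GBP1, BST2, NFKBIA and NFKB2. GBP1, an interferon-induced GTPase, and BST2, an interferon-induced antiviral membrane protein, had the same pattern as CXCL10: GBP1 held 78, 117, 1 and 2 reads and BST2 49, 70, 2 and 3 reads in control libraries A to D. Their changes differed between series by 4.10 and 4.17 on the log2 scale (adjusted p = 8.8e-05 for each, limma). CXCL9 was lower in series 22 in control libraries (-2.41, adjusted p = 0.000687, limma) and in cytokine libraries (-1.17, adjusted p = 0.0167, limma), and its change was not called different (1.24, SE 0.34, adjusted p = 0.999, limma). With 0 to 2 CXCL10 reads in the series 22 controls, the size of the CXCL10 difference moved with the pseudocount, from 4.29 to 1.92 (adjusted p = 0.0951, limma) at a pseudocount of 1. It also missed the threshold without the intensity trend (adjusted p = 0.121, limma) and relative to GAPDH (adjusted p = 0.0620, limma), and passed with edgeR on reads (6.74, adjusted p = 0.0180).

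**Figure D3:**
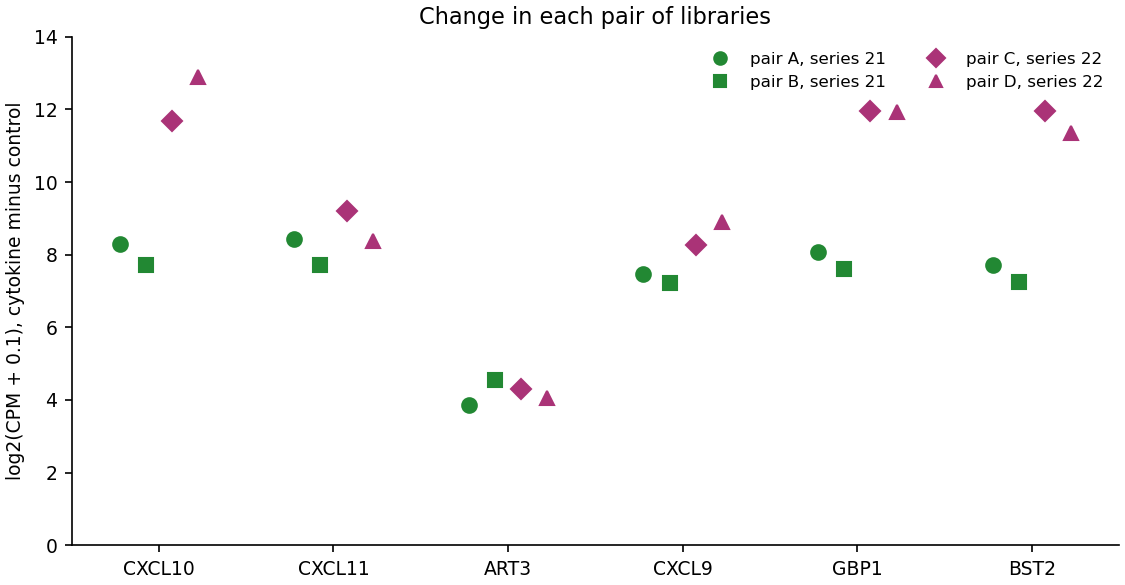
Difference in log2(CPM + 0.1) between the cytokine and control library of each pair (vertical axis) for CXCL10, CXCL11, ART3, CXCL9, GBP1 and BST2, with green symbols for series 21 and purple symbols for series 22. CXCL10 changes by 8.28 and 7.72 in pairs A and B and by 11.68 and 12.89 in C and D, whereas for ART3 the 4 pairs lie between 3.87 and 4.55.

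The neighbours were compared to see how far along the chromosome a change was measured. Of the genes whose span reaches within 1 Mb of the interval from CXCL9 to ART3, 18 other than the 3 members were measured. Of these, 2 were called, both higher, which is 11.1%. Of all genes, 9.52% were called higher and 27.0% in either direction. They were CXCL9 and PARM1. CXCL9 rose from 21.02, 24.3, 3.72 and 4.69 CPM in control libraries A to D to 3729, 3637, 1183 and 2276 CPM (log2 fold change 7.96, SE 0.60, adjusted p = 4.02e-06, limma). PARM1, a mucin-like membrane protein whose start lies 1090 kb from that of CXCL10, rose from 125 to 160 CPM in control to 204 to 298 CPM in cytokine libraries (log2 fold change 0.80, SE 0.15, adjusted p = 0.00235, limma).

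The nearest measured neighbour beyond CXCL9 was SDAD1, whose start lies 32.5 kb from that of CXCL10. It held 20.4 to 31.2 CPM in control and 35.3 to 38.0 CPM in cytokine libraries. It was 0.496 higher on the log2 scale (SE 0.14, adjusted p = 0.0210, limma), just below the fold threshold. On the other side of ART3 the nearest was the nucleoporin gene NUP54, which differed by 0.17 (SE 0.25, adjusted p = 0.652, limma). The median of the 18 neighbours was 0.18, beside -0.17 for all genes. With TMM scaling 6 of the 18 were called higher, SDAD1 (0.65), G3BP2 (0.63), NAAA (0.77) and SCARB2 (0.58) joining CXCL9 and PARM1, which is 33.3% beside 13.0% of all genes called higher under that scaling. Leaving out control library C also gave 6. With the pair as a block 3 were called, NAAA (0.62, adjusted p = 0.00567, limma) joining the 2.

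**Figure D4:**
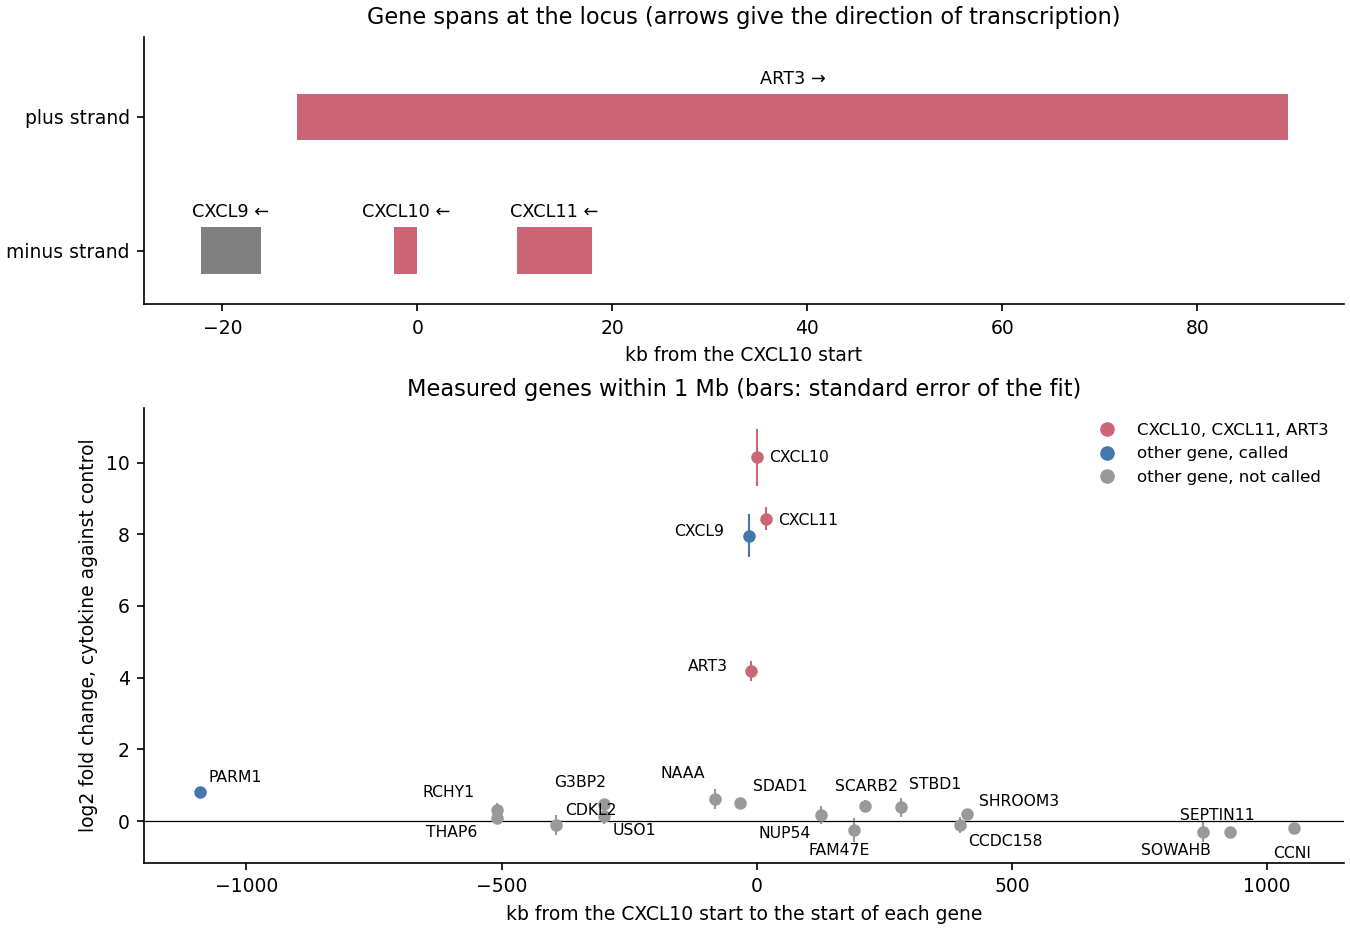
Spans of CXCL9, CXCL10, CXCL11 and ART3 by strand (top; horizontal axis in kb from the CXCL10 start), and log2 fold change of each measured gene within 1 Mb (bottom; vertical axis with standard errors) against the distance of its start from that of CXCL10. The 4 genes of the locus lie between 4.19 and 10.14 and the other 17 between -0.32 and 0.80.

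On the receiving side of the axis, DPP4 was the single other gene measured. It encodes a membrane peptidase that trims CXCR3 ligands and weakens them. DPP4 held 18.6, 25.1, 48.0 and 33.9 CPM in control libraries A to D and 15.5, 14.8, 22.5 and 20.96 CPM in cytokine libraries. Each pair was lower with cytokines, but the groups overlapped and the gene was not called (log2 fold change -0.70, SE 0.27, adjusted p = 0.0686, limma). With the pair as a block it was called lower (adjusted p = 9.29e-05, limma). The other ligands PF4 and PF4V1, the receptors CXCR3, ACKR3 and ACKR1, and the ADP-ribosyltransferases ART1, ART4 and ART5 were not analysed here. The deposited table does not list them under these symbols.

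Other chemokine genes were raised as well. Of 31 listed, 10 were measured and 7 of these were called higher, which is 70.0% beside 9.52% of all genes, with a median log2 fold change of 1.64 over the 10 and -0.17 over all genes. The deposited table required 0.5 CPM in 4 or more samples. CXCL2, CXCL8 and CXCL17 stayed below this in each control library (at most 0.171, 0.0847 and 0.278 CPM), so they entered it through treated samples. CXCL3 passed it in control library A alone (0.599 CPM, beside 0.0796 to 0.176 CPM in the others), so it too needed treated samples. A chemokine gene near silent in control could thus be measured only if it rose, and nothing is read from the 70.0%. CXCL2, which attracts neutrophils through CXCR2, rose from 0.04 to 0.17 CPM in control to 3.50 to 20.8 CPM in cytokine libraries (log2 fold change 5.35, SE 0.53). CXCL8, also a CXCR2 ligand, rose by 4.30 (SE 0.76), with 0 to 4 control reads and pair differences of 1.63 to 5.97. CXCL1 rose by 2.14 (SE 0.33). CXCL3 was called higher by 1.72 (SE 0.51), although its groups overlapped and pair A went from 28 to 20 reads (-0.41), and it was not called without control library B, C or D or cytokine library C or D (adjusted p from 0.0582 to 0.0747, limma). The membrane-tethered CX3CL1 rose from 33.8 to 66.4 CPM to 117 to 152 CPM (1.57, SE 0.22), CXCL16, also tethered, by 1.04 (SE 0.16), and CXCL17 by 2.11 (SE 0.36). The adjusted p of the 7 ran from 3.09e-05 to 0.0256 (limma). CXCL12, the most abundant of the 3 not called, held 98.4 to 171 CPM in control and 93.4 to 145 CPM in cytokine libraries (-0.14, SE 0.20). XCL1 (0.05, SE 0.44) and CCL28 (-0.59, SE 0.26) were not called either. With the pair as a block CCL28 was called lower (adjusted p = 0.0108, limma), and CXCL12 was not called (adjusted p = 0.0536, limma).

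Of 16 listed genes of interferon gamma and NF-kB signalling to these promoters, all measured, 11 were called higher, which is 68.8% beside 9.52% of all genes, with a median log2 fold change of 1.59. The transcription factor IRF1 rose from 10.3 to 12.8 CPM to 635 to 977 CPM (6.03, SE 0.15). The kinase JAK2 rose by 3.72 (SE 0.15), STAT2 by 2.05 (SE 0.25) and STAT3 by 1.92 (SE 0.17). IRF8 rose by 4.21 (SE 0.17), IRF9 by 4.03 (SE 0.38) and IRF2 by 1.26 (SE 0.16). The feedback inhibitor SOCS1 (5.62, SE 0.21) and the phosphatase PTPN2 (0.76, SE 0.14) rose too. SOCS3, a related inhibitor, was called higher with 0 to 2 control reads, so its fitted 4.55 depends on the pseudocount. Like CXCL2, SOCS3 was below 0.5 CPM in each control library and entered the deposited table through treated samples. The list was also chosen with earlier results of these data known, so nothing is read from the 68.8% or the median. In reads it rose 114-fold (95% counting interval 20.0 to 4523), 68.6-fold (11.9 to 2749) and 69.4-fold (18.8 to 579) in pairs A, B and D and at least 91.3-fold in pair C. The NF-kB subunit RELA, called higher by 0.52 (SE 0.14), lay just past the fold threshold and fell short of it (0.44 to 0.49) without control library C or D or cytokine library A or B. The receptor chains IFNGR1 (0.25, SE 0.11) and IFNGR2 (-0.06, SE 0.17), JAK1 (0.08, SE 0.16), NFKB1 (0.41, SE 0.24; 0.60 and called with DESeq2, adjusted p = 0.0292) and the NF-kB inhibitor NFKBIA (0.40, SE 0.26) were not called. NFKBIA was lower with cytokines in pairs A and B (-0.22 and -0.48) and higher in pairs C and D (1.23 and 1.08). The adjusted p of the 11 ran from 8.74e-10 to 0.0157 (limma).

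**Figure D5:**
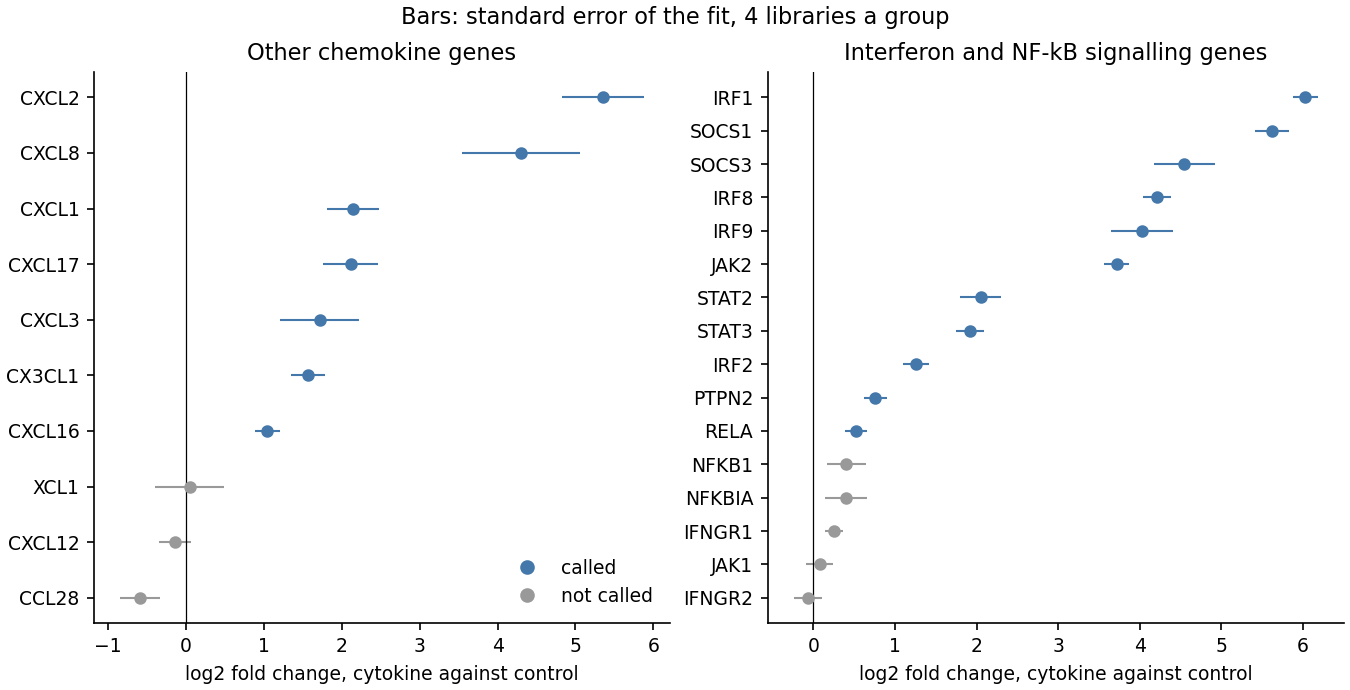
Log2 fold change, cytokine against control (horizontal axes, bars show the standard error of the fit, 4 libraries in each group), of the measured chemokine genes outside the locus (left) and of interferon gamma and NF-kB signalling genes (right), blue where called. In the left panel 7 of 10 and in the right panel 11 of 16 are called, all to the right of 0.

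Genes whose pattern was most like that of each member were ranked by Pearson r in log2(CPM + 0.1) over the 8 libraries, which all share the step between conditions. For CXCL10 they were TIAM2 (r = 0.998), BST2 (0.998), GBP1 (0.997), GBP3 (0.994) and ID1 (0.992). For CXCL11 they were ETV7 (0.998), ERAP2 (0.997), ZEB1 (0.997), the unnamed ENSG00000285744 (0.997) and APOL6 (0.997). For ART3 they were IL12A (0.999), EPSTI1 (0.997), BTN3A2 (0.996), DOC2B (0.996) and IFI35 (0.996). Within the locus, ART3 gave r = 0.990 with CXCL11, 0.966 with CXCL9 and 0.964 with CXCL10. ART3 was at 0 in each control library, so this order depends on how level the control values of the other gene were. Control libraries held 2 to 10 reads of CXCL11, whereas CXCL10 and CXCL9 split there by series. The order is thus no sign of a closer tie between ART3 and CXCL11.

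Deviations from the group means were set beside each other in the same way, though for CXCL11 the control deviations rest on 2 to 10 reads and for ART3 on none, so a low r there says nothing of how alike the members are. In cytokine libraries, where reads were ample, D was highest and C next for both CXCL10 and CXCL11. Libraries A and B lay below them and close together for CXCL10 (16158 and 16197 reads), so they are not put in order. Over all 8 libraries the deviations of CXCL10 gave r = 0.77 with CXCL9, 0.06 with CXCL11 and -0.06 with ART3, and those of CXCL11 and ART3 gave -0.05. The genes nearest to CXCL10 were then SMAD3 (0.967), GBP1 (0.965), TIAM2 (0.964), BST2 (0.961) and ICAM1 (0.945). For CXCL11 the list was led by TNRC6C (0.975), TRDN-AS1 (0.969), C2orf50 (0.937), ENSG00000272764 (0.937) and GCNA (0.932), and for ART3 by NR1H3 (0.950), DBH-AS1 (0.946), CDPF1P1 (0.935), LINC02777 (0.926) and PLPP1 (0.901). These values describe 8 libraries and, for ART3, only the 4 cytokine libraries vary.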

How the data were processed

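RNA of 4 untreated and 4 cytokine-treated EndoC-βH5 samples was sequenced by the authors on a DNBSEQ platform from strand-specific libraries. According to the methods, reads were filtered with SOAPnuke, aligned with TopHat 2.1.1 to GRCh38 and counted on Ensembl 107 genes with HTSeq 0.9.1, with a minimum of 0.5 CPM in 4 or more samples. The deposited values are CPM, which the authors obtained by dividing counts by the library total. Reads were recovered from them, with 100% of values whole to within 0.01 read. Another 4 columns were not used.

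The members and gene lists were chosen with earlier results of these data known. Columns were mapped to groups by name and carry no replicate number. The values, as log2(CPM + 0.1), were compared with limma 3.58.1 (R 4.3.3), with a trend on intensity and p-values adjusted by Benjamini-Hochberg over 16525 genes. Calls needed a log2 fold change beyond 0.5 in either direction and an adjusted p below 0.05, as in the study. The study's own edgeR test needs counts, so it was run on the recovered reads as an alternative (edgeR 4.0.16), as was DESeq2 1.42.0. Series were compared in a fit of 4 cells. The code was tested on simulated data. Genes named are the members, the CXCR3 axis, ADP-ribosyltransferases, called and nearest neighbours within 1 Mb, called genes of the chemokine list, the signalling list, of which 1 gene is not reported here, and the 5 genes most like each member. GBP1 and BST2 were among top genes named beforehand, and NFKB2, TMM-called neighbours and the chemokines not called were named after their values were seen.

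TPM used the union of GENCODE 29 exons, which 16167 genes have. Deviations from the group means correlated within pairs A to D by 0.46, 0.50, 0.75 and 0.68, so the shared names were taken to pair the libraries. Between A and B the crossed values were 0.45 and 0.49, so these pairs are not told apart from their series, whereas those between C and D were 0.10 and 0.094. The lowest chi-square per gene between libraries of a group was 5.89, so none is a copy. Python 3.11.15, pandas 2.3.3, numpy 2.4.6, scipy 1.17.1 and matplotlib 3.10.9 were used.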

Additional observations from a re-analysis of the deposited data

Results flagged for a closer look

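The cytokine change differed between the series of column names, by the test of the difference itself, in 5 genes: CXCL10 (log2 difference 4.29, series 22 minus 21), BST2 (4.17), GBP1 (4.10), NFKB2 (1.52) and NFKBIA (1.51). For CXCL10, GBP1 and BST2 the control libraries of series 22 held 0 to 3 reads. The cause was not tested.

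In 4 of 80 groups of 4 libraries, over 41 genes, 1 library lay far from the other 3, and chance gives about 1 in 20. XCL1 was 1.33 CPM in control library A, beside 0.254 to 0.391 CPM in the others. SOCS1 was 1.69 CPM in control library B, beside 0.956 to 1.08 CPM. HSPA6 was 196 CPM in cytokine library C, beside 85.1 to 100.04 CPM. SAMD9L had 1 read (0.0199 CPM) in control library C and 0 in the others. No group of CXCL10, CXCL11 or ART3 was among them.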

How the results depend on the processing

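Of 304 values recomputed under the alternatives, 260 counted as unchanged. For a fold change this meant the same direction and a shift smaller than the SD of the pair differences. A series difference had to keep its direction and its side of the threshold. A TPM level had to move by less than the SD of the cytokine libraries. A count of called genes had to stay within a set factor, so 5852 beside 4470 genes counted as unchanged. The SD of pair differences was 2.53 for CXCL10, beside 0.61 for CXCL11 and 0.30 for ART3, so larger shifts passed for CXCL10. By this wide limit, which is no sign of a more stable estimate, the log2 fold change of CXCL10 was unchanged throughout (9.48 to 10.82 with each library left out, 9.64 with edgeR with TMM). That of CXCL11 was 6.82 and 5.96 at pseudocounts of 0.5 and 1, 9.47 and 9.32 with edgeR with and without TMM, and 9.52 with DESeq2 (8.26 to 8.63 leaving out libraries). That of ART3 was 2.16, 1.45, 9.50, 9.42 and 9.03 under the same settings and 3.88 after quantile normalization (4.07 to 4.30 leaving out libraries), and a filter at a mean of 1 CPM removed the gene. ART3 in cytokine libraries was 3.60 TPM by the longest transcript, beside 2.22 TPM by the union of exons. The neighbours called were 6 with TMM scaling, median-of-ratios scaling, edgeR with TMM and DESeq2, 4 after quantile normalization, 7 relative to GAPDH and 2 to 6 with each library left out (6 without control C, 4 without cytokine A or B). With the replicate block by shared name 2 genes of the CXCR3 axis were called instead of 1, as after quantile normalization, with a term for the series (an alternative added after seeing the data) and without control library A. The block changed the calls of DPP4, NAAA, CCL28 and the beta-cell marker IAPP among the genes listed here and gave 5852 called genes over the whole table, beside 4470. Genes called higher and lower were 1574 and 2896, and 2154 and 1933 with TMM scaling. Leaving out libraries gave 3899 to 4339 called genes, 6 to 7 chemokines and 10 to 11 signalling genes.

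For the series, the CXCL10 change missed the threshold relative to GAPDH (4.32), at a pseudocount of 1 (1.92) and without the intensity trend (4.29), and was 3.92 to 4.65 leaving out libraries. In cytokine libraries CXCL10 was called at pseudocounts of 0.5 (0.77) and 1 (0.77) and without control library D (0.77) or cytokine library C (1.14), within 0.41 to 1.14. In control libraries it was -3.80 to -3.22 leaving out libraries, and -1.76 and -1.15 at pseudocounts of 0.5 and 1 and -6.00 with edgeR. CXCL11 in cytokine libraries was called at pseudocounts of 0.5 (0.81) and 1 (0.81) and with edgeR (0.74), and lay at 0.70 to 0.93 leaving out libraries. CXCL11 in control libraries turned to -0.28 after quantile normalization and -0.019 relative to GAPDH, and lay at -0.43 to 0.65. Its change was 0.17 to 1.25. ART3 lay at -0.38 to 0.30 in cytokine libraries and for the change, which was 0.17 after quantile normalization. The causes were not tested. Depth limits the control values, since 2 reads or fewer stand behind several of them.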
